A study of Homo sapiens with 12 samples.

Results

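Amino acid transporter genes were followed in Ishikawa cells, which derive from a human endometrial adenocarcinoma, and in which ARID1A had been knocked down with a short hairpin RNA. The ARID1A protein binds DNA and is part of SWI/SNF, a complex that moves nucleosomes. The genes were taken by symbol as every measured member of the SLC1, SLC3, SLC6, SLC7, SLC36, SLC38 and SLC43 families, leaving out the cystine exchanger SLC7A11. This gave 56 of the 45320 genes in the files, of which 30 had enough counts to be tested among 17020 genes. The cells carried either the hairpin against ARID1A (shARID1A) or a control hairpin (shNC). Each arm received DMSO as vehicle, 17-beta-estradiol (E2, 10 nM), or the same E2 dose together with fulvestrant (100 nM). Treatment lasted 8 h. E2 activates the estrogen receptor, and fulvestrant blocks it and promotes its degradation. All groups shared phenol red-free medium with charcoal-treated serum, which is low in steroid hormones. Each of the 6 groups had 2 libraries. The labels do not give the number of hairpins or lines behind an arm, and it is not stated if both libraries of one group stem from separate cultures. The p-values therefore measure the spread between these libraries, which may be technical. An effect of ARID1A cannot be told apart from any other difference between the cells of the arms.

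Amino acid transporters carry amino acids, and in some families related small molecules, across the plasma membrane or the membranes of organelles. Sodium-coupled carriers such as SLC1A5, SLC38A1 and SLC38A2 load cells with small neutral amino acids such as glutamine. The exchanger LAT1 (SLC7A5), held at the membrane by its heavy chain 4F2hc (SLC3A2), then trades internal amino acids for large neutral ones such as leucine, which feed mTORC1 signalling. Several of these genes are known targets of ATF4, the transcription factor of the amino acid starvation response, and LAT1 is abundant in many carcinomas.

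The libraries held 28810351 to 38657162 counts, and 3 counts, used as the floor for a gene with none, corresponded to 0.0811 to 0.103 CPM (counts scaled to library size). ARID1A RNA was at 53.8 to 61.7 CPM in shARID1A libraries and 109.9 to 123.3 CPM in shNC libraries, and its averaged log2 fold change was -1.03 (SE 0.04, adjusted p = 3.02e-19 by edgeR's quasi-likelihood test). Of 6 epithelial markers, EPCAM, KRT8 and KRT18 averaged 1 CPM or more, whereas CDH1, KRT19 and CLDN4 averaged less. The 6 summed to 537.1 to 574.1 CPM in shARID1A libraries, below the 852.3 to 930.4 CPM in shNC libraries. Of 6 fibroblast markers COL1A1 alone reached 1 CPM, THY1 was at 0, and the sum was 45.6 to 48.8 CPM in shARID1A and 26.5 to 36.2 CPM in shNC libraries. Of 5 neural markers SNAP25 and SYP reached 1 CPM, with sums of 9.33 to 13.3 CPM in shARID1A and 6.52 to 8.25 CPM in shNC libraries. Immune markers, with CD3E at 0, summed to at most 0.641 CPM in shARID1A and 0.775 CPM in shNC libraries. Endothelial markers, with KDR at 0, summed to at most 0.270 CPM in shARID1A and 0.282 CPM in shNC libraries. The immune and endothelial sums overlapped between the arms. The epithelial, fibroblast and neural sums did not, and their part in the differences between arms below was not tested. In bulk RNA, fewer cells of a kind and less RNA per cell cannot be told apart.

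The transporter genes together took 0.566 to 0.578% of all counts in shARID1A libraries and 0.556 to 0.584% in shNC libraries, so their summed share overlapped between the arms. Levels of different genes are compared here as RPKM, which is CPM per kilobase of exon in the files. SLC7A5 (LAT1) had the highest RPKM of all members, with 499.3 ± 16.8 RPKM in shARID1A and 457.5 ± 20.3 RPKM in shNC libraries (SD, n = 6 each). Its shNC level stood at percentile 99.4 of the 17020 genes tested. Below it in shNC cells came the glutamine carrier SLC1A5 at 199 ± 11.3 RPKM, the heavy chain SLC3A2 at 144.3 ± 6.49 RPKM and the small neutral amino acid carrier SLC38A2 at 120.1 ± 8.47 RPKM. The glycine carrier SLC6A9 and SLC43A3, known as a purine nucleobase transporter, followed at 74.7 ± 3.7 and 74.2 ± 2.6 RPKM in shNC cells, a difference smaller than their SDs. The creatine carrier SLC6A8 had 57.0 ± 1.83 RPKM in shNC cells, and the glutamine carrier SLC38A1 had 46.3 ± 3.25 RPKM over an exon model that is 38.2% of its GENCODE 29 length. SLC1A4 (36.9 ± 2.11 RPKM), a carrier of alanine, serine and cysteine, and SLC38A10 (35.9 ± 1.56 RPKM) did not differ beyond their SDs in shNC cells. Of the system L genes, which carry large neutral amino acids, SLC7A5 made up nearly all RPKM. The facilitative carriers SLC43A1 (LAT3) and SLC43A2 (LAT4) had 10.9 ± 0.67 and 3.01 ± 0.33 RPKM in shNC cells, and the exchanger SLC7A8 (LAT2) had 1.99 ± 0.22 RPKM.

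**Figure D1:**
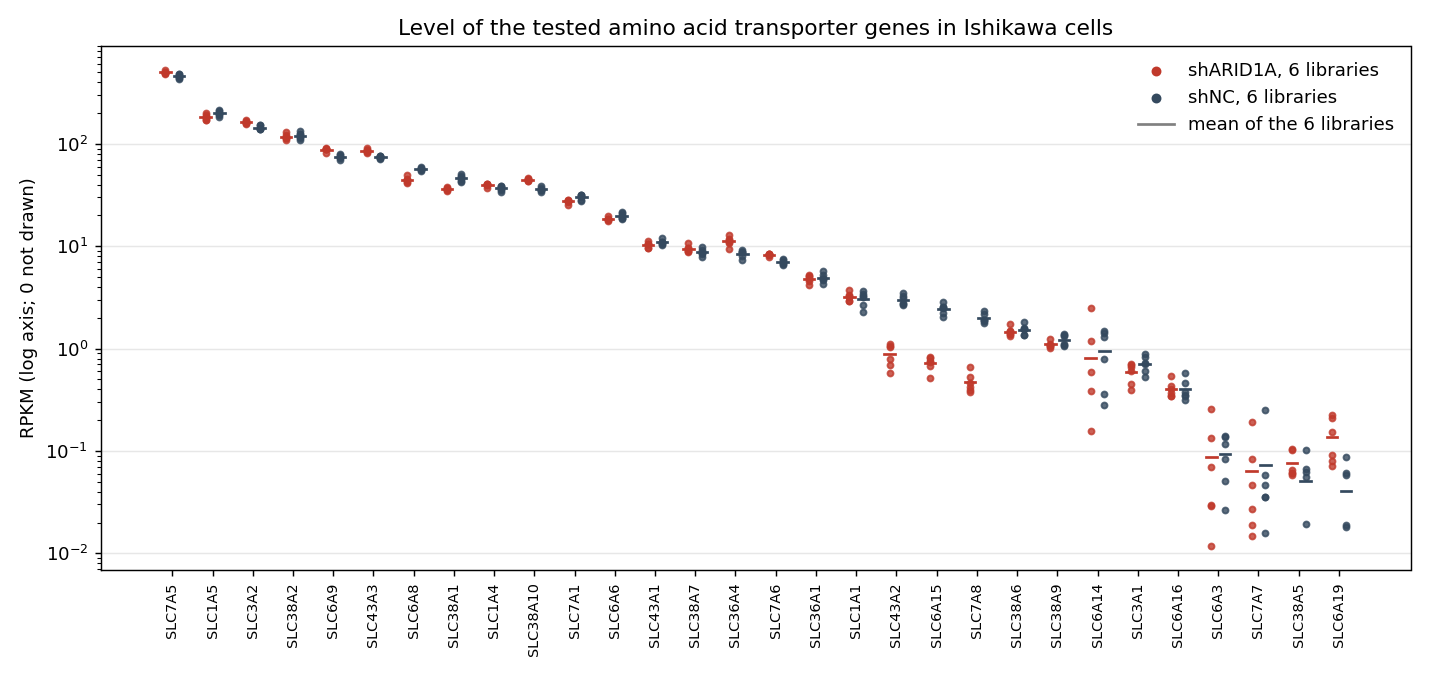
RPKM (log axis) of the tested members, those with a mean under 1 CPM included, in order of their level, with 6 shARID1A and 6 shNC libraries as points. SLC7A5 lies highest in both arms, and SLC7A8, SLC43A2 and SLC6A15 show the widest gap between the arms among members with a mean of at least 1 CPM. SLC6A19, under 1 CPM, shows a similar gap the other way, with means of 0.138 RPKM in shARID1A and 0.0404 RPKM in shNC.

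At the other end, 26 members had too few counts to be tested. No read was counted in any library for 15 of them, including the glial glutamate carriers SLC1A2 and SLC1A3, so each lay under the floor given above. The other 11 had at most 9 counts in any library. The betaine and GABA carrier SLC6A12 had 2 to 8 counts in each of the 12 libraries. The proline carrier SLC6A7 had 0 to 2 counts in shARID1A and 2 to 9 counts in shNC libraries. A further 5 members passed the low-count filter with a mean under 1 CPM: SLC6A3, SLC6A14, SLC6A19, SLC7A7 and SLC38A5. The remaining 25 had a mean of at least 1 CPM.

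Knockdown was accompanied by lower RNA of 3 low-abundance carriers of large neutral and branched-chain amino acids. The glutamine carrier SLC38A1 and the creatine carrier SLC6A8 decreased moderately, and SLC36A4 and SLC38A10 increased by a similar size. LAT1, its heavy chain and several others had smaller increases. Averaged over the treatments, 16 of the 30 tested members were called at an adjusted p under 0.05 (53.3%). In shARID1A 9 of them were higher and 7 lower, while 43.1% of all tested genes were called, 20.3% higher and 22.8% lower. The 9 include SLC6A19, which reached the level of the low-count filter in shARID1A libraries only, so its call is a description. Within single treatments, 12 members were called in DMSO (6 higher and 6 lower, against 19.2% of all genes called, 9.7% higher and 9.5% lower). In E2 10 were called (5 higher and 5 lower, against 27.2% of all genes, 13.4% higher and 13.8% lower), and in E2 with fulvestrant 12 (7 higher and 5 lower, against 24.2% of all genes, 11.4% higher and 12.8% lower). The 3 comparisons share no library, but they compare the same arms and share the estimate of spread from 1 fit to all 12 libraries. In each, 10 members were called in the same direction, against 13.3% of all genes. The 5 called lower in each were SLC7A8, SLC43A2, SLC6A15, SLC38A1 and SLC6A8, against 6.5% of all genes. The 5 called higher in each were SLC3A2, SLC43A3, SLC6A9, SLC38A10 and SLC36A4, against 6.76% of all genes. No member was called in opposite directions. The median log2 fold change of the tested members was -0.04, beside -0.02 over all genes, and the median size of the change was 0.19 for members and 0.21 for all genes. Without replicate 2 of shNC in DMSO, 7 members were called in DMSO in place of 12 (SLC7A8, SLC43A2, SLC6A15, SLC6A8, SLC1A5, SLC36A4 and SLC7A6), and the share of all genes called was 11.2% in place of 19.2%. Without it, 5 members in place of 10 were called in the same direction in each treatment (SLC7A8, SLC43A2, SLC6A15, SLC6A8 and SLC36A4), against 8.47% of all genes. The other libraries left out in turn gave 7 to 10 such members, and SLC7A8, SLC43A2, SLC6A15 and SLC6A8 were among them in all 12 cases. In E2 with fulvestrant, SLC3A2, SLC43A3, SLC6A9, SLC7A5 and SLC7A6 lost the call without replicate 1 of shARID1A and also without replicate 2 of shNC. Both times SLC36A4 and SLC38A10 stayed called higher. SLC6A19 was also called higher in both, which is a description only, since it entered the test only through shARID1A libraries. The share of all genes called there was 12.8% and 14.4% in place of 24.2%. In E2, 3 in place of 5 were called higher without replicate 2 of shNC, where 15.3% of all genes were called in place of 27.2%, and SLC3A2 and SLC6A9 lost the call. SLC36A4 lost its call in E2 without replicate 1 of either arm. When changes were tested against 1.2-fold in place of no change, an alternative chosen after seeing the data, 7 members passed, against 13.9% of all genes. These were SLC7A8, SLC43A2, SLC6A15, SLC38A1 and SLC6A8 with lower and SLC36A4 and SLC6A19 with higher RNA in shARID1A. As among the 9 above, SLC6A19 is counted here only as a description.

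**Figure D2:**
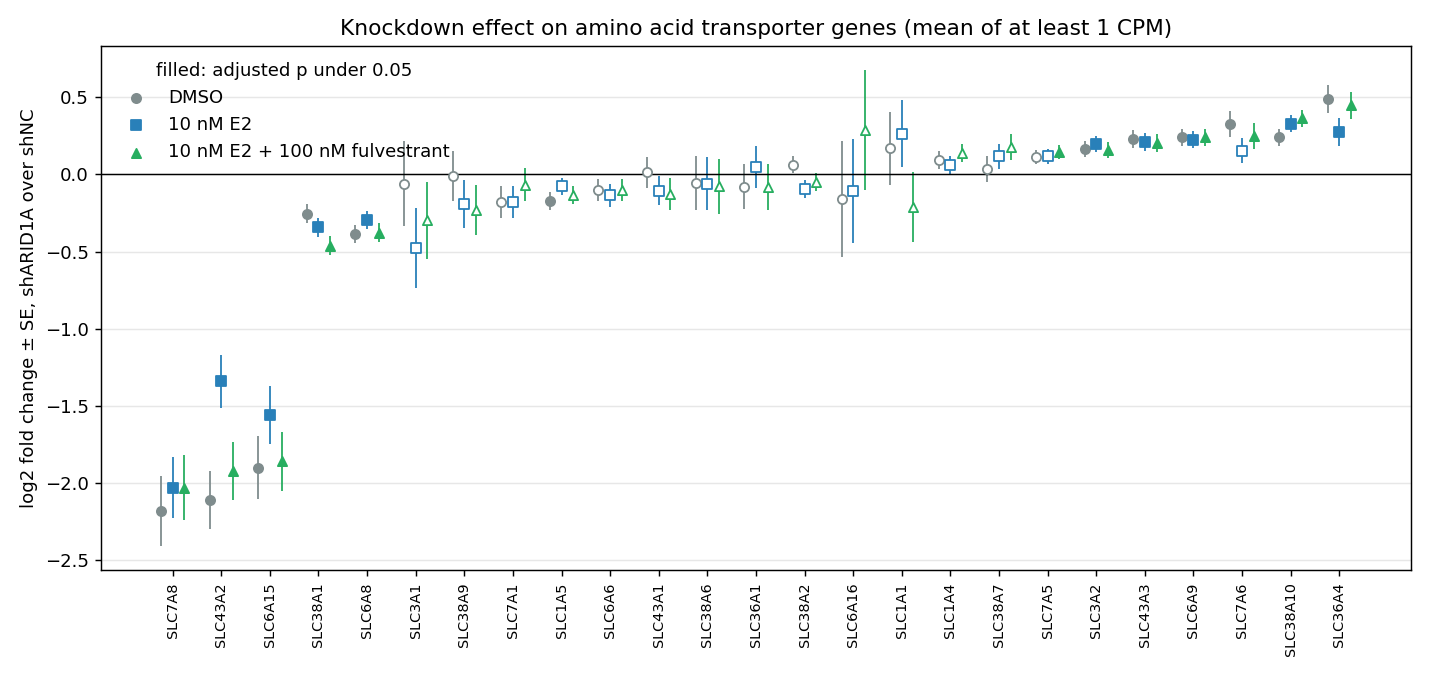
Log2 fold change of shARID1A against shNC for the members with a mean of at least 1 CPM in DMSO, E2 and E2 with fulvestrant, with bars of 1 SE; filled points passed an adjusted p of 0.05. SLC7A8, SLC43A2 and SLC6A15 stand at -1.34 or lower in each treatment, and the other members lie much closer to 0.

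SLC7A8 (LAT2) is the other main light chain of SLC3A2 for neutral amino acids, and lies on the minus strand of chromosome 14 from 23594504 to 23652850 (hg19). In DMSO it had 2.25 and 2.43 CPM in shARID1A libraries, against 10.98 and 10.25 CPM in shNC libraries. In E2 the values were 3.80 and 2.19 CPM in shARID1A, against 13.53 and 10.61 CPM in shNC. In E2 with fulvestrant they were 3.05 and 2.67 CPM in shARID1A, against 12.56 and 10.87 CPM in shNC. Every shARID1A library was far below every shNC library. Averaged over treatments the log2 fold change was -2.08 (SE 0.12, adjusted p = 4.35e-15), which left 23.6% of the shNC level, and by treatment it was -2.18, -2.03 and -2.03.

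SLC43A2 (LAT4), a sodium-independent carrier of large neutral amino acids on the minus strand of chromosome 17 from 1477698 to 1532180 (hg19), also fell. It had 4.26 and 3.68 CPM in shARID1A with DMSO, against 17.5 and 16.7 CPM in shNC. With E2 it had 5.69 and 5.92 CPM in shARID1A, against 14.8 and 14.7 CPM in shNC. With E2 and fulvestrant it had 3.09 and 5.57 CPM in shARID1A, against 18.6 and 14.1 CPM in shNC. The arms did not overlap, although the 2 shARID1A libraries with fulvestrant lay apart from each other. The averaged log2 fold change was -1.79 (SE 0.11, adjusted p = 4.16e-15), or 28.9% of the shNC level left.

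SLC6A15, a sodium-coupled carrier of branched-chain amino acids and proline best known from neurons, lies on the minus strand of chromosome 12 from 85253492 to 85306604 (hg19). It had 2.35 and 3.51 CPM in shARID1A with DMSO, against 10.2 and 11.6 CPM in shNC. With E2 it had 3.71 and 3.41 CPM in shARID1A, against 9.28 and 11.5 CPM in shNC, and with E2 and fulvestrant 3.77 and 3.07 CPM in shARID1A, against 11.8 and 13.1 CPM in shNC. No shARID1A library reached the lowest shNC library. The averaged log2 fold change was -1.77 (SE 0.11, adjusted p = 3.08e-14), with 29.3% of the shNC level left. These 3 genes were the members called at over 2-fold lower, against 3.42% of all genes tested, and all are of low abundance, with 1.99 to 3.01 RPKM in shNC cells.

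Among the system L genes, LAT1 RNA dominated in both arms. Of the summed RPKM of SLC7A5, SLC7A8, SLC43A1 and SLC43A2, SLC7A5 made up 97.7 ± 0.15% in shARID1A and 96.6 ± 0.17% in shNC libraries (SD, n = 6 each). SLC7A8 made up 0.0932 ± 0.022% in shARID1A and 0.421 ± 0.041% in shNC libraries. SLC43A2 made up 0.172 ± 0.043% in shARID1A and 0.636 ± 0.073% in shNC libraries. SLC43A1 made up 2.03 ± 0.12% in shARID1A and 2.30 ± 0.14% in shNC libraries. SLC43A1 itself was not called, with a log2 change of -0.07 (adjusted p = 0.334).

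A second group of decreases was smaller and concerned abundant carriers. SLC38A1 (SNAT1), which takes up glutamine with sodium and lies on the minus strand of chromosome 12 from 46589508 to 46663800 (hg19), had 131.9, 138.1 and 145.5 CPM as lowest, median and highest of the 6 shARID1A libraries, against 160.7, 177.7 and 192.9 CPM in shNC. All 6 shARID1A libraries were below all 6 shNC libraries. The averaged log2 fold change was -0.35 (SE 0.04, adjusted p = 1.51e-09), and by treatment it was -0.25 in DMSO, -0.34 in E2 and -0.46 in E2 with fulvestrant. SLC6A8, the creatine carrier on the plus strand of chromosome X from 152954178 to 152960855 (hg19), had 148.7, 158 and 175.1 CPM in shARID1A, against 194.3, 202.8 and 212 CPM in shNC, again with no overlap. Its averaged log2 fold change was -0.35 (SE 0.03, adjusted p = 5.59e-10). Its pseudogene copy SLC6A10P had 4 to 22 counts per library, and how reads shared with the copy were split is uncertain.

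SLC1A5 (ASCT2), the exchanger that brings in glutamine, lies on the minus strand of chromosome 19 from 47278142 to 47288162 (hg19). It had 349.3, 366.3 and 405 CPM in shARID1A, against 370.4, 405.1 and 432.5 CPM in shNC, and the arms overlapped. The averaged log2 fold change was -0.13 (SE 0.03, adjusted p = 0.00256), but within treatments the gene was called only in DMSO, at -0.17 (adjusted p = 0.0344). That call was lost with DESeq2's size factors (adjusted p = 0.0529), without replicate 1 (-0.13, adjusted p = 0.284) or replicate 2 (-0.21, adjusted p = 0.0691) of shARID1A in DMSO, and without replicate 1 of shNC in DMSO (-0.10, adjusted p = 0.367). The taurine carrier SLC6A6 had 134.4, 140.1 and 151.8 CPM in shARID1A, against 141.6, 150.6 and 165 CPM in shNC. Its averaged log2 fold change of -0.11 (SE 0.04, adjusted p = 0.0299) was called in no single treatment. With DESeq2 its adjusted p was 0.0804.

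LAT1 and its heavy chain were slightly higher after knockdown. SLC7A5, on the minus strand of chromosome 16 from 87863629 to 87897245 (hg19), had 1982, 2058 and 2194 CPM as lowest, median and highest of the 6 shARID1A libraries, against 1790, 1888 and 1990 CPM in shNC. Only the lowest shARID1A library, in E2 with fulvestrant, lay under the highest shNC library, in DMSO. The averaged log2 fold change was 0.13 (SE 0.03, adjusted p = 0.000269), and single treatments gave 0.12, 0.12 and 0.15, of which the last, in E2 with fulvestrant, was called (adjusted p = 0.0201). Its pseudogene copy SLC7A5P1 had 34 to 73 counts per library, or 1.03 to 2.12 CPM, far below SLC7A5 itself, and how shared reads were split is uncertain. SLC3A2, on the plus strand of chromosome 11 from 62623518 to 62656352 (hg19), had 783.8, 815.2 and 861.1 CPM in shARID1A, against 696.4, 712.3 and 771.2 CPM in shNC, with no overlap. Its averaged log2 fold change was 0.18 (SE 0.03, adjusted p = 1.65e-05). The ratio of SLC7A5 to SLC3A2 RPKM was 3.07 ± 0.05 in shARID1A and 3.17 ± 0.08 in shNC libraries (SD, n = 6 each), with ranges of 2.99 to 3.12 and 3.06 to 3.32 that overlapped.

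The increases with the largest fold change among members at 1 CPM or more were in SLC36A4 and SLC38A10. SLC36A4, a relative of the lysosomal proton-coupled carrier SLC36A1, lies on the minus strand of chromosome 11 from 92881314 to 92931130 (hg19). It had 53.2, 64.9 and 72.8 CPM in shARID1A, against 41.8, 49.9 and 51.9 CPM in shNC, with no overlap, and an averaged log2 fold change of 0.40 (SE 0.05, adjusted p = 1.45e-07). SLC38A10, an SLC38 family member on the minus strand of chromosome 17 from 79218804 to 79269347 (hg19), had 314.6, 328.1 and 336.9 CPM in shARID1A, against 249.1, 258.7 and 280.8 CPM in shNC. The arms were separate, and the averaged log2 fold change was 0.31 (SE 0.03, adjusted p = 1.71e-09).

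SLC6A9 (GLYT1), which takes up glycine, had 344.8, 372.3 and 379.3 CPM in shARID1A, against 292.5, 312.8 and 334.3 CPM in shNC (chromosome 1, 44457172 to 44497139, hg19). The arms did not overlap and the log2 fold change was 0.24 (SE 0.03, adjusted p = 4.53e-07). SLC7A6, a light chain of SLC3A2 that exchanges cationic for neutral amino acids, had 45.8, 49.2 and 49.6 CPM in shARID1A, against 38.4, 40.6 and 44.1 CPM in shNC (chromosome 16, 68298451 to 68335722, hg19). It was called averaged over treatments (log2 fold change 0.24, SE 0.05, adjusted p = 0.000104), in DMSO (0.33) and in E2 with fulvestrant (0.25), but not in E2 (0.15, adjusted p = 0.174). SLC43A3 had 211.9, 222.8 and 235.5 CPM in shARID1A, against 182.3, 192.1 and 198.4 CPM in shNC (chromosome 11, 57175004 to 57194594, hg19), without overlap, and a log2 change of 0.21 (SE 0.03, adjusted p = 2.22e-06). Exons of other genes cover 49.6% of the SLC7A6 exon bases and 52.3% of those of SLC43A3, and no strand was used in the counting, so both values are uncertain. SLC1A4 had 230.6, 245.8 and 248.4 CPM in shARID1A, against 206.8, 229.9 and 239.6 CPM in shNC, which overlapped. Its averaged log2 fold change of 0.10 (SE 0.03, adjusted p = 0.0166) was not called without replicate 2 of shARID1A in E2 with fulvestrant (0.09, adjusted p = 0.0611), replicate 2 of shNC in DMSO (0.08, adjusted p = 0.0824) or replicate 2 of shNC in E2 with fulvestrant (0.08, adjusted p = 0.0974).

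SLC6A19, the neutral amino acid carrier of kidney and intestine, was the member called at over 2-fold higher, where 1.22% of all genes were. It reached the level of the low-count filter (0.324 CPM) in 3 shARID1A libraries and 0 shNC libraries, so it entered the test only through the arm where it is higher, and its call is given as a description. It had 7 to 26 counts in shARID1A libraries and 0 to 10 counts in shNC libraries, or 0.461 ± 0.22 CPM in shARID1A and 0.135 ± 0.11 CPM in shNC (SD, n = 6 each). The log2 fold change was 1.73 (SE 0.53, adjusted p = 0.00815), and in the fit to all 12 libraries it was called in no single treatment. Without replicate 2 of shARID1A in E2 with fulvestrant the averaged call was lost, and the log2 fold change was 1.39. Without replicate 2 of shNC in E2 with fulvestrant it was 3.27.

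**Figure D3:**
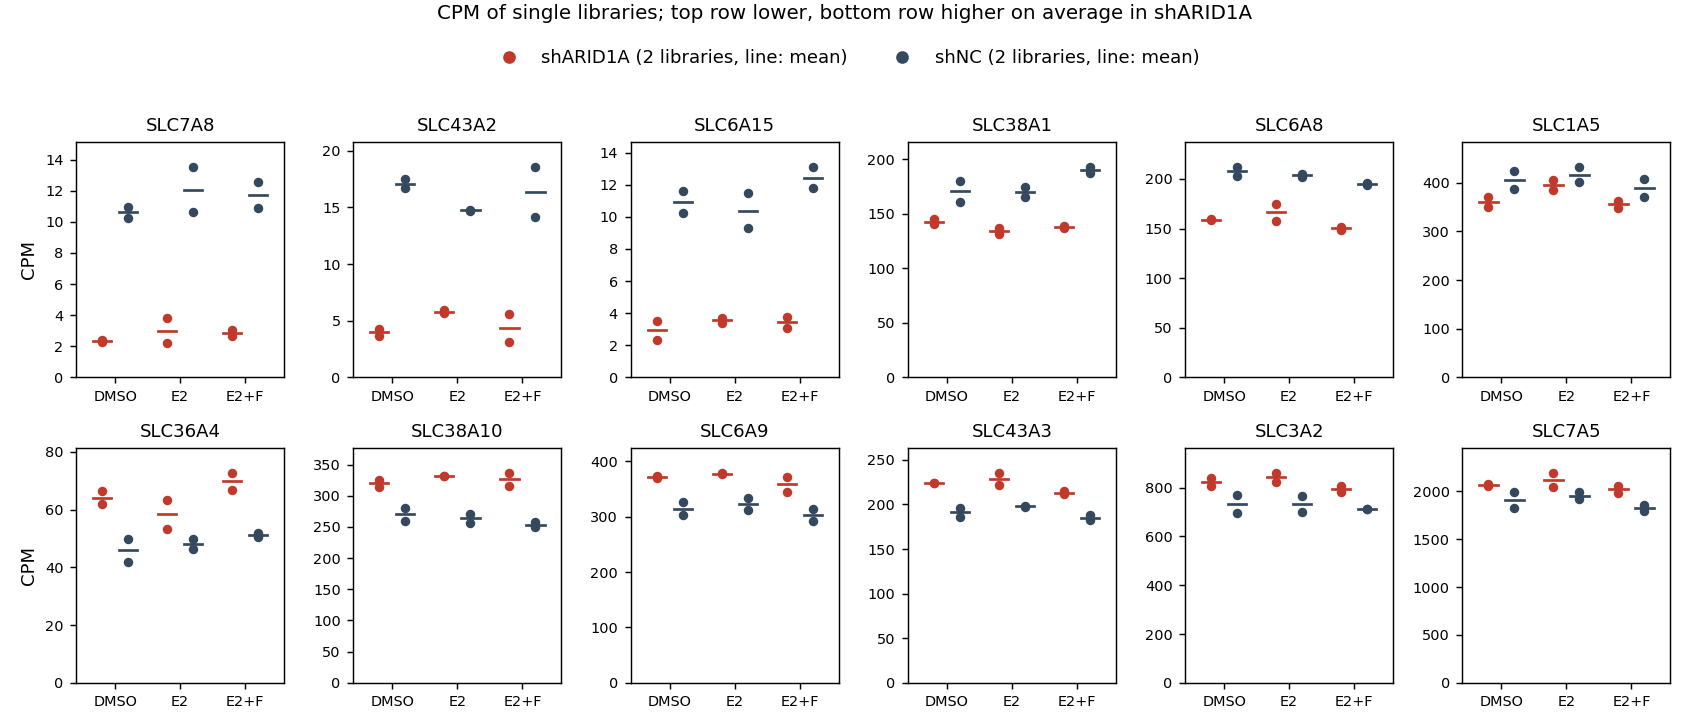
CPM of single libraries by treatment for the 6 members in the top row with lower and the 6 in the bottom row with higher average RNA in shARID1A; each point is a library and each line the mean of 2. The arms are separate in each panel except those of SLC1A5 and SLC7A5.

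For 11 members, no shARID1A library fell within the range of the shNC libraries, against 22% of all genes. Those were SLC7A8, SLC43A2, SLC6A15, SLC38A1 and SLC6A8 with lower RNA, and SLC3A2, SLC6A9, SLC43A3, SLC38A10, SLC36A4 and SLC7A6 with higher RNA. By family, beside 20.3% of all genes called higher and 22.8% lower, 2 of the 8 SLC6 members tested rose and 3 fell. The 2 include SLC6A19, which entered the test only through shARID1A libraries. Of the 5 SLC7 members tested 2 rose and 1 fell, and of the 7 SLC38 members tested 1 rose and 1 fell.

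Several well known members were not called. SLC38A2 (SNAT2), a carrier that cells raise when amino acids are scarce, had 685, 716.4 and 817.6 CPM in shARID1A, against 681.4, 746.5 and 821.2 CPM in shNC, almost the same range, and a log2 change of -0.03 (SE 0.03, adjusted p = 0.549). SLC7A1, the main cationic amino acid carrier, had 18.5, 20.1 and 20.6 CPM in shARID1A, against 20.2, 22.5 and 23.2 CPM in shNC, with a log2 change of -0.14 (SE 0.06, adjusted p = 0.0618). The files count only 726 exon bases for SLC7A1. Of the lysosomal members, the arginine sensor SLC38A9 had 8.60, 9.16 and 10.6 CPM in shARID1A, against 9.04, 10.3 and 11.9 CPM in shNC (log2 fold change -0.14, SE 0.09, adjusted p = 0.223). SLC36A1 had 10.5, 12.4 and 13.2 CPM in shARID1A, against 10.9, 12.2 and 14.5 CPM in shNC (log2 fold change -0.04, SE 0.08, adjusted p = 0.763). The lysosomal glutamine exporter SLC38A7 had a log2 change of 0.11 (SE 0.05, adjusted p = 0.0616). It was called higher with DESeq2's size factors, and without replicate 1 of either arm in E2.

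Promoter sequences are shown for 6 of the members whose RNA differed between the arms, picked after the motif matches were seen so that each holds a match. SLC6A15, SLC6A8 and SLC38A10, which changed as much or more than some of these, are not among them. They are the 250 bases before a RefSeq transcription start in GRCh38.p14, a different build from the hg19 of the counts, written 5′ to 3′ on the strand of the gene. For genes with several starts, the window with most motif matches was taken. Both strands were searched for TGANTCA, the AP-1 site, CACGTG, the E-box, and TGATGNAA, the core of the amino acid response element bound by ATF4, and each window shown holds 1 match. Capitals mark the AP-1 site in the first 5 sequences and the E-box in that of SLC7A5. The windows are chr14:23155321-23155570 (minus strand) for SLC7A8, chr17:1605035-1605284 (minus) for SLC43A2, chr12:46266517-46266766 (minus) for SLC38A1, chr11:93197427-93197676 (minus) for SLC36A4, chr11:62881449-62881698 (plus) for SLC3A2 and chr16:87869508-87869757 (minus) for SLC7A5.
SLC7A8: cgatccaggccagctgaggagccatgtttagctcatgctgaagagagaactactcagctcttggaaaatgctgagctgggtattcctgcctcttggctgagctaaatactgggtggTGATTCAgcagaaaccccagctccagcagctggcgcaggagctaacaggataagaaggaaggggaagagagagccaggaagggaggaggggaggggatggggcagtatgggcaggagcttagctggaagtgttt
SLC43A2: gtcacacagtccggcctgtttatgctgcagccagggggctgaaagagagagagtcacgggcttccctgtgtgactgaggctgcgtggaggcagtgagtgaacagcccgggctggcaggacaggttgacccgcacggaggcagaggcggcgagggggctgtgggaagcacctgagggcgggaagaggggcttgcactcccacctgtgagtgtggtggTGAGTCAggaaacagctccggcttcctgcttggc
SLC38A1: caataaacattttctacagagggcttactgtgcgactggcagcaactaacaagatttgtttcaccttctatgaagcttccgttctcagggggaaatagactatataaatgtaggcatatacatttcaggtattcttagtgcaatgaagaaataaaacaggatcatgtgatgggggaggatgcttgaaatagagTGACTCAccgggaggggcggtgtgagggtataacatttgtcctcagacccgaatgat
SLC36A4: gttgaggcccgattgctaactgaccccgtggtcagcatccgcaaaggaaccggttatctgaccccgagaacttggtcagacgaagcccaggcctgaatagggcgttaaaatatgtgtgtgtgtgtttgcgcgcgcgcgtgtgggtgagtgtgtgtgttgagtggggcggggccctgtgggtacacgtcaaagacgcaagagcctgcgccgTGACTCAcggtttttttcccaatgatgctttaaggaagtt
SLC3A2: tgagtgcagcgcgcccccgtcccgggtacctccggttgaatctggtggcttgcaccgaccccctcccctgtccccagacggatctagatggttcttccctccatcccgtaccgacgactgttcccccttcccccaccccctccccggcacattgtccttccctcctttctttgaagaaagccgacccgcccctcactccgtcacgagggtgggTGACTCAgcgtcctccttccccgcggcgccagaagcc
SLC7A5: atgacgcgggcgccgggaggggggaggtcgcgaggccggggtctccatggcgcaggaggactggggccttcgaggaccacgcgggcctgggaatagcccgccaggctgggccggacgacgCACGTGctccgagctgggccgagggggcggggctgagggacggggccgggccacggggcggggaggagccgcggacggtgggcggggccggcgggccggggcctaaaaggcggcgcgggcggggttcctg
Of 44 windows for 25 tested members, 7 held the AP-1 site (15.9%), against 6.57% of all 35116 windows in the table. These belonged to SLC7A8, SLC43A2, SLC38A1, SLC36A4, SLC3A2, SLC38A9 and SLC6A14. The first 3 fell, SLC36A4 and SLC3A2 rose, and SLC38A9 and SLC6A14 were not called, so the letters occurred with RNA changes in both directions. The E-box was in 8 member windows (18.2%), against 6.34% of all windows, and the amino acid response element core in 1 (2.27%), that of SLC1A5, against 3.14% of all. The member windows are those of tested genes, whereas all windows were not limited to tested genes, and genes with several starts count several times. These shares therefore compare unlike sets, and their differences were not tested. A match to these letters is a description and does not show that a factor binds there.

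E2 and fulvestrant left the transporter RNAs with no called change. For E2 against DMSO, 0 of the 30 tested members were called in shARID1A cells, where 0.0235% of all genes were called, and 0 in shNC cells, where 0.00588% were. By edgeR's unadjusted p under 0.05 there were 4 members in shARID1A and 0 in shNC, and DESeq2 called 0 in both. For fulvestrant added to E2, 0 members were called in either arm, against 0.00588% of all genes in each, with 5 members at an unadjusted p under 0.05 in shARID1A and 5 in shNC. For E2 with fulvestrant against DMSO, 0 were called in shARID1A (0% of all genes) and 0 in shNC (0.0118%), with 1 and 2 members at an unadjusted p under 0.05. DESeq2 called 0 members in these comparisons too. The E2 comparison and the fulvestrant comparison share their E2 libraries. Among the 25 members averaging 1 CPM or more, the log2 fold changes after E2 ran from -0.17 to 0.55 in shARID1A and from -0.21 to 0.25 in shNC, with 21 and 23 of them within 0.2 of 0. For SLC7A5 the log2 fold change after E2 was 0.04 (SE 0.05) in shARID1A and 0.03 (SE 0.05) in shNC cells, neither of them called.

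**Figure D4:**
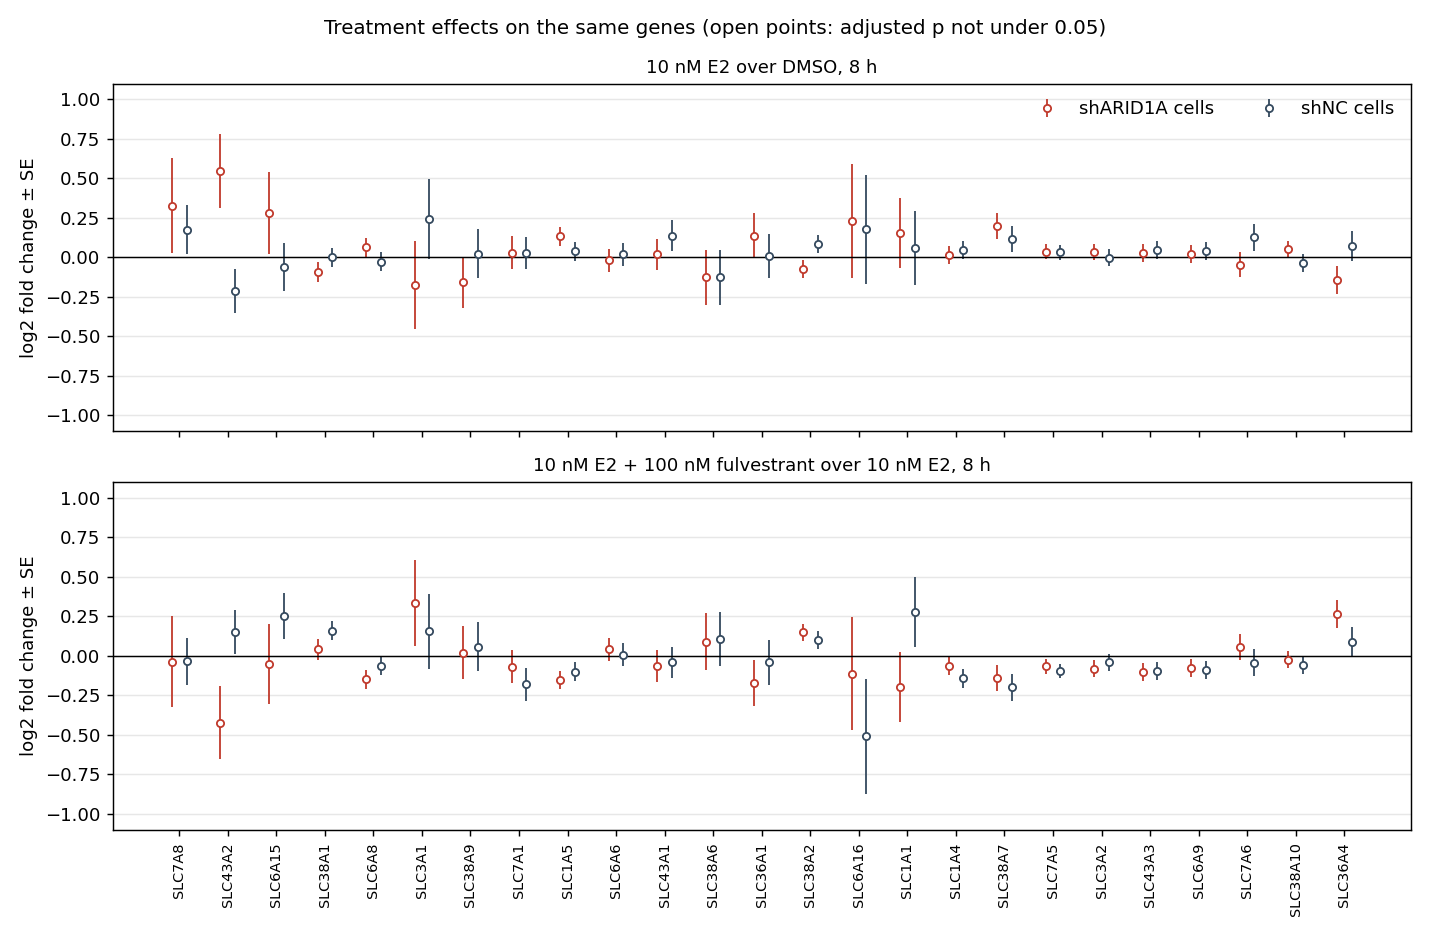
Log2 fold change of E2 against DMSO and of E2 with fulvestrant against E2 in shARID1A and shNC cells for the members with a mean of at least 1 CPM, with bars of 1 SE. All points are open, since none passed an adjusted p of 0.05, and the widest gap between arms after E2 among these members is in SLC43A2.

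Among the 25 members averaging 1 CPM or more, the E2 effect on SLC43A2 differed most between the arms, without passing the test. Its CPM with E2 was 5.69 and 5.92 in shARID1A, above the 4.26 and 3.68 with DMSO, and 14.8 and 14.7 in shNC, below the 17.5 and 16.7 with DMSO. The E2 groups did not overlap the DMSO groups in either arm, and the directions were opposite. The log2 fold change was 0.55 (SE 0.24, adjusted p = 0.717) in shARID1A and -0.21 (SE 0.14, adjusted p = 1) in shNC. The difference between arms was 0.76 (SE 0.27, unadjusted p = 0.0087, adjusted p = 0.679), so it failed the correction over 17020 genes. For the differences between arms, 0 members were called for E2 (0.0294% of all genes) and 0 for fulvestrant (0.0118%), with 1 and 2 members at an unadjusted p under 0.05, and DESeq2 called 0 for both. Fulvestrant added to E2 gave SLC36A4 66.8 and 72.8 CPM in shARID1A, against 63.4 and 53.2 CPM with E2 alone (log2 fold change 0.27, SE 0.09, adjusted p = 0.382). SLC38A2 had 773.7 and 821.2 CPM in shNC cells with E2 and fulvestrant, against 681.4 and 719.4 CPM with DMSO (log2 fold change 0.19, SE 0.06, adjusted p = 0.372). These groups did not overlap but neither change passed.

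Other genes of amino acid handling were counted from 5 lists. Of 19 tested genes of the amino acid response around ATF4, 3 rose and 12 fell after knockdown averaged over treatments. The median log2 fold change was -0.21, and 20.3% of all genes were higher and 22.8% lower. Besides ATF4 targets, the list holds the upstream kinases EIF2AK4, among the 3 that rose, and EIF2AK3, which was not called. In each single treatment 3 rose and 10 fell, beside 9.7% of all genes higher and 9.5% lower in DMSO, 13.4% and 13.8% in E2, and 11.4% and 12.8% in E2 with fulvestrant. CTH, which makes cysteine from cystathionine, went against the majority, with 133.6 ± 3.15 CPM in shARID1A and 53.3 ± 0.56 CPM in shNC (log2 fold change 1.33, adjusted p = 9.02e-23). The mitochondrial folate enzyme MTHFD2 had 322.1 ± 5.19 CPM in shARID1A and 460.7 ± 14.8 CPM in shNC (-0.52, adjusted p = 2.46e-15). The pseudokinase TRIB3 had 143.4 ± 15.4 CPM in shARID1A and 225.6 ± 16.3 CPM in shNC (-0.66, adjusted p = 2.88e-15). The stress protein gene NUPR1 rose by 0.44 (adjusted p = 2.03e-11). SLC7A5 and SLC3A2, which ATF4 is known to activate, had slightly higher RNA in the same cells.

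Of 29 tested genes of amino acid sensing and mTORC1 control, 10 rose and 4 fell, with a median of 0.07, beside 20.3% of all genes higher and 22.8% lower. TFEB, the transcription factor of lysosome genes, had 4.29 ± 0.65 CPM in shARID1A and 8.65 ± 1.29 CPM in shNC (log2 fold change -1.0, adjusted p = 3.5e-08). The folliculin partner FNIP1 fell by 0.41, the Ragulator subunit LAMTOR4 rose by 0.32 and SEC13, a GATOR2 subunit, rose by 0.19. Of 33 tested amino acid enzymes 9 rose and 7 fell, with a median of 0.02, beside the same 20.3% and 22.8% of all genes. ASS1, which makes argininosuccinate, had 8025 ± 401.1 CPM in shARID1A and 5720 ± 245.5 CPM in shNC (0.49, adjusted p = 1.71e-16). PYCR1, the last enzyme of proline synthesis, rose by 0.45.

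Of 11 tested other amino acid transport genes, 5 rose and 1 fell, with a median of 0.12, beside 20.3% of all genes higher and 22.8% lower. MFSD12, needed for cysteine import into lysosomes and melanosomes, had 1600 ± 68.8 CPM in shARID1A and 966.5 ± 43.3 CPM in shNC (log2 fold change 0.73, adjusted p = 1.23e-18). The lysosomal cystine exporter CTNS rose by 0.17 (adjusted p = 0.00717), the mitochondrial carrier SLC25A29 rose by 0.24 and the aspartate-glutamate carrier SLC25A13 fell by 0.21. Of 13 genes of transporter ubiquitination and trafficking, 4 rose and 5 fell, with a median of -0.05, beside the same shares of all genes. NEDD4L, a ubiquitin ligase that removes carriers from the membrane, had 26.98 ± 2.94 CPM in shARID1A and 39.5 ± 2.58 CPM in shNC (-0.56, adjusted p = 3.44e-10). SGK1, a kinase that inhibits NEDD4L, had 207.2 ± 6.37 CPM in shARID1A and 158.1 ± 4.85 CPM in shNC (0.39, adjusted p = 4.69e-11). The arrestin domain genes ARRDC2 and ARRDC3, adaptors for such ligases, moved apart, ARRDC2 rising by 0.57 and ARRDC3 falling to 8.43 ± 2.04 CPM in shARID1A, against 14.5 ± 1.17 CPM in shNC (SD, n = 6 each).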

How the data were processed

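RNA of 12 Ishikawa libraries was measured by poly(A) RNA sequencing (TRIZOL, TruSeq mRNA, per the labels' protocols). The deposited values are counts of reads per gene over exons, not normalized. Per the submitters' processing notes, Trim Galore, cutadapt, FastQC, Subread 2.0.0 and the hg19 build were used. featureCounts 2.0.0 made the counts, per the file headers, which show no setting for strand, so overlapping genes and near-identical copies are uncertain. The combined table of the series was not used. Whether reads were paired is not given in the sources used here.

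Counts were fitted with edgeR 4.0.16 in R 4.3.3: filterByExpr by group, TMM scaling, 1 mean per group over all 12 libraries, and the quasi-likelihood F-test, with Benjamini-Hochberg adjustment over the 17020 genes tested and a call at an adjusted p under 0.05. The knockdown averaged over treatments weights the 3 treatments equally. SE is the size of the log2 fold change divided by the square root of F. CPM uses TMM-scaled library sizes. Depth was 28810351 to 38657162 counts per library. The floors cover counting error only, whereas SD and SE also hold the spread between libraries. The fits were checked on simulated data.

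The members and the 5 lists were chosen with earlier results of these data known. Members named with values are the called ones with a mean of at least 1 CPM, up to 12 each way, with 10 well-known transporters added, called or not; of each list, up to 4 genes with the smallest adjusted p. SLC6A19, SLC6A7, SLC6A12, SLC38A7, SLC43A1, EIF2AK4, EIF2AK3 and the genes without counts were named outside this rule, after their values were seen. Listed genes without a matching symbol, or under the filter, are not analysed here, and some single genes are not reported. Motifs were searched in RefSeq promoter windows with GRCh38.p14 coordinates, and exon overlaps with GenomicRanges 1.54.1. Alternatives were DESeq2 1.42.0 and its size factors, no filter, a replicate block, the compared groups alone, each library left out, and a test against 1.2-fold.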

Additional observations from a re-analysis of the deposited data

How the results depend on the processing

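The counts of called members moved past 1.5 times under 2 alternatives. Without replicate 2 of shNC in DMSO, 7 members were called in DMSO in place of 12, and 2027 of 18026 genes in place of 3268 of 17020. Against 1.2-fold, 7 were called averaged over treatments in place of 16, and 2362 genes in place of 7339. SLC6A19, which entered the test only through shARID1A libraries, is in both the 7 and the 16. With each library left out in turn, as many or fewer members were called in DMSO, E2 and E2 with fulvestrant as with all 12 libraries. Averaged over treatments, the fewest were called without replicate 2 of shARID1A in E2 with fulvestrant. In all these knockdown comparisons, the share of all genes called was lower than with all 12 libraries. No member was called in the 8 treatment comparisons. DESeq2 called 12 members in DMSO, 10 in E2, 13 in E2 with fulvestrant and 15 averaged over treatments. Beside these, it called 10.7%, 14.3%, 13.7% and 23.4% of the 28723 genes in its fit. SLC6A19 is in the 15 as well. With no filter on low counts, SLC6A7 was also called lower. For 20 members under 17 alternatives each, 323 of 340 averaged values kept direction and call, and 14 lost the call.

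SLC6A6 lost its call in 10 settings. With DESeq2's size factors its adjusted p was 0.0538, and in the 8 fits without 1 library that lost the call it was 0.0517 to 0.2, the highest without replicate 1 of shNC in E2 with fulvestrant, where the log2 fold change was -0.07. The sign turned for 2 members that were not called. SLC36A1 was 0.0063 without replicate 2 of shARID1A in E2 with fulvestrant and 0.035 without replicate 1 of shNC in E2. SLC38A2 was 0.0027 without replicate 1 of shARID1A in E2 with fulvestrant. Leaving out each library gave -0.10 to 0.035 for SLC36A1 and -0.056 to 0.0027 for SLC38A2. The causes were not tested.

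Same-numbered libraries deviated together weakly at most. The correlations of their deviations from the group means over 12461 genes ran from -0.139 to 0.156 over 15 pairs, with 4 over 0.1. With the replicate block, 12 members were called in DMSO, against 19.8% of all genes, and 11 in E2, against 27.8%. In E2 with fulvestrant 12 were called, against 24.6% of all genes. Averaged over treatments 16 were called, SLC6A19 included, against 43.5% of all genes. In each treatment comparison 0 members were called.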

Other observations

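The exon models counted in the files covered little of some members. For SLC7A1 the files counted 726 exon bases, 9.44% of the 7692 in GENCODE 29, and for SLC6A14 344 of 4520 (7.61%). SLC1A1 (30.3%), SLC36A1 (36.2%) and SLC38A1 (38.2%) were also short, against 87.3% for SLC7A5. Levels of these members per kilobase therefore describe part of each gene. Whether other exon models change the calls was not tested.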
